A study of Mus musculus with 6 samples.

Results

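Fast-induced genes were followed across RNA-seq libraries of microglia, the resident macrophages of the brain. The set holds 39 genes of 49585 in the deposited files: immediate early transcription factors, the feedback genes that follow them, and heat-shock chaperones. They were listed by symbol, and each was matched to an Ensembl gene of GENCODE release M21. Expression filtering kept 34 of them among 11041 tested genes, and 5 (Fosb, Jund, Egr3, Nr4a2 and Nr4a3) were too low in too many libraries to be tested. Among them, Fosb failed although it was well counted in WT replicates 1 and 2, and a gene that passes only through the group where it is high had to differ, so counts over the tested genes do not describe all 39. Among the tested members, 3 met the filter in all libraries of the group with the higher mean alone: Dusp5 (1 WT library and 3 IRF8KO libraries), Gadd45b (2 and 3) and Klf4 (3 and 2). The 6 libraries were 3 from wild-type mice (WT) and 3 labelled IRF8KO, which stands for a knockout of the transcription factor gene Irf8. All mice were male and aged 3 months. Strain, the knockout allele and any treatment beyond the genotype are not given in the labels, nor is the time from brain to lysis. Cells were isolated without enzymes and sorted into TRIzol.

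Immediate early genes are transcribed within minutes of a stimulus, from promoters that are already set up, and need no new protein. MAP kinases reach them through serum response factor with its ETS partners and through CREB, while heat-shock factor drives the inducible chaperones when proteins unfold. Their products include transcription factors of the AP-1, EGR, NR4A and KLF families and proteins that end the response: phosphatases that switch MAP kinases off, Zfp36 that removes short-lived mRNA, and inhibitors of NF-kB. In microglia these genes are known to respond to taking the tissue apart and to sorting, besides signals in the living brain. No label records how long either step took here.

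Gene counts per library ranged from 3658917 to 11098363. Levels are given as CPM, counts per 1000000 of the TMM-scaled library size. The libraries carry no molecular identifiers, so counting intervals cover counting error only. WT replicate 3 stood apart from WT replicates 1 and 2. The chi-square statistic per degree of freedom was 8.57 between WT replicates 1 and 2 and at least 65.3 between either of them and WT replicate 3. It was 23.0 to 33.0 between IRF8KO libraries. This statistic grows with depth, and WT replicate 1 had the fewest gene counts. Reads counted to no gene feature, which can include reads in introns, made up 2.44% in WT replicate 3. They made up 7.70% and 7.52% in WT replicates 1 and 2, and 3.86% to 6.27% in IRF8KO. The summed level of 12 homeostatic microglia markers was 45284, 50538 and 77324 CPM in WT and 38026 to 53589 CPM in IRF8KO. Summed markers of border-associated macrophages, 12 genes of which Lyve1 and Cd209f had 0 counts everywhere, were 614 to 843 CPM in WT and 3863 to 5067 CPM in IRF8KO. Irf8 itself had 795 to 1403 CPM in WT and 650 to 850 CPM in IRF8KO, so its count does not check the labels, which alone give the genotype. Apoe took 0.154% to 0.324% of WT gene counts and 25.5% to 33.7% of IRF8KO gene counts, which is why levels use TMM scaling and shares are given beside them.

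The 39 genes took a far larger share of WT replicates 1 and 2 than of the other 4 libraries. Their share of gene counts was 1.30%, 2.03% and 0.191% in WT replicates 1, 2 and 3 and 0.210%, 0.259% and 0.254% in IRF8KO replicates 1, 2 and 3. Exact 95% binomial intervals were 1.29% to 1.31% in WT replicate 1 and 0.187% to 0.194% in WT replicate 3, whose share lay below all IRF8KO libraries. The summed level averaged 8971 ± 6761 CPM over the WT libraries, against 2874 ± 295 over the IRF8KO libraries (SD, n = 3 each), so the WT spread was close to the size of the WT mean. Junb, Btg2, Dusp1 and Jun were among the 5 most counted members in both WT replicates 1 and 2, where Junb led with 9.59% and 11.5% of the members' counts. Hspa8, the constitutive chaperone, led in all IRF8KO libraries with 19.6% to 25.03%. Against all 3 WT libraries, 17 of the 34 tested members fell in IRF8KO, where 9.46% of all tested genes did, and 2 rose, where 9.64% did (quasi-likelihood F test of edgeR; p adjusted by Benjamini-Hochberg over all tested genes, called under 0.05). The median log2 fold change was −1.59 over the tested members and −0.11 over all tested genes. In bulk libraries such as these, fewer cells of a type and less RNA per cell cannot be told apart.

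**Figure D1:**
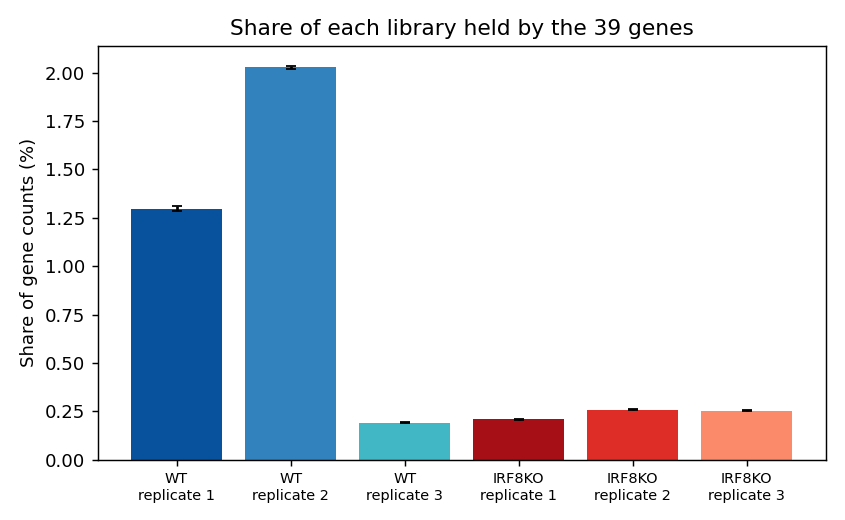
Share of gene counts (%) held by the 39 genes in each library, with exact 95% binomial intervals as bars. WT replicates 1 and 2 reach 1.30% and 2.03%, and the other 4 libraries lie between 0.191% and 0.259%.

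AP-1 is a pair of JUN proteins, or of a JUN with a FOS or ATF protein. Most of its tested subunits were lower in IRF8KO. Fos (chromosome 12, 85473890 to 85477273, plus strand; GRCm38, as are all coordinates) encodes the FOS partner that is induced first. It had 643, 880 and 0.138 CPM in WT replicates 1, 2 and 3 and 21.8, 11.2 and 17.6 CPM in IRF8KO replicates 1, 2 and 3; all values below are in this order. WT replicate 3 held a single Fos read against 12433 in WT replicate 2, a scaled ratio of 6386 (exact 95% counting interval 1146 to 252253), and the IRF8KO libraries lay between the WT libraries. The log2 fold change was −4.92 (SE 1.41, edgeR adjusted p = 0.0304). Without WT replicate 3 it was −5.49 (edgeR adjusted p = 1.68e-06), and with WT replicate 3 as the lone WT library it was 6.78 (edgeR adjusted p = 0.00125), a value that rests on that single read. The call was lost in 4 of the 6 fits that left out 1 library, and limma-voom gave −1.66 (limma adjusted p = 0.679). Fosb, a close relative, had 88, 504 and 0 counts in WT and 3, 5 and 0 in IRF8KO, with WT replicates 1 and 2 highest and WT replicate 3 level with IRF8KO replicate 3. Against a floor of 3 counts in WT replicate 3, WT replicates 1 and 2 were at least 41.4-fold and at least 86.3-fold higher.

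The Fos promoter is shown because Fos had the widest gap among the WT libraries. The window is the 250 bases before the RefSeq start (GRCm38.p6, chr12:85473640-85473889, plus strand), with matches to an NF-kB motif, the CRE core TGACGT and a TATA box in capitals, in that order.
Fos: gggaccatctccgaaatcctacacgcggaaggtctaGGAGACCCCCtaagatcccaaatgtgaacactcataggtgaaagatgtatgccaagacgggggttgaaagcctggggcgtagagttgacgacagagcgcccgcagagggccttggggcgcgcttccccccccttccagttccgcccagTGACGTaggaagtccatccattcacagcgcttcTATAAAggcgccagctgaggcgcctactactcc
The CRE core, the letters that CREB binds, began 66 bases before the start, and the TATA box 33 bases before it.

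Jun (chromosome 4, 95049034 to 95052222), the main partner of FOS, had 736, 1545 and 49.8 CPM in WT and 29.5, 48.2 and 54.4 CPM in IRF8KO. WT replicate 3 lay inside the IRF8KO range, while WT replicates 1 and 2 were far above it. Its log2 fold change was −4.14 (SE 0.87, edgeR adjusted p = 0.00653), and −0.16 (edgeR adjusted p = 0.842) with WT replicate 3 as the lone WT library. The antisense gene Junos shares 7.28% of the exonic length of Jun, and the by-strand sums (67.7 CPM in WT replicate 3, 43.2 to 69.5 CPM in IRF8KO) also left WT replicate 3 inside the IRF8KO range. Junb (chromosome 8, 84974484 to 84978718), a JUN protein that often counters Jun, had 886, 1798 and 391 CPM in WT and 329, 243 and 376 CPM in IRF8KO. All WT values exceeded all IRF8KO values, though WT replicate 3 did so by little. The log2 fold change of Junb was −1.70 (SE 0.47, edgeR adjusted p = 0.0271). Atf3, a stress-induced partner that represses inflammatory genes, had 50.6, 123 and 30.9 CPM in WT and 24.6, 12.4 and 7.81 CPM in IRF8KO, with no overlap. It fell by 2.21 on the log2 scale (SE 0.53, edgeR adjusted p = 0.0134). Fosl2, a FOS relative of slower onset, went the other way: 5.25, 6.73 and 5.24 CPM in WT and 38.4, 46.0 and 25.2 CPM in IRF8KO. Here the WT libraries were alike, the groups did not overlap, and the log2 fold change was 2.66 (SE 0.37, edgeR adjusted p = 5.6e-04).
Jund, the JUN protein usually made at a steady level, had 1 count in WT replicate 2 and 0 elsewhere. An antisense gene covers 52.6% of its exonic length, and reads on both genes were dropped from the strand-blind count. Summed over the by-strand columns, Jund had 11, 42 and 6 counts in WT and 2, 5 and 0 in IRF8KO, which is still too few for a comparison.

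EGR factors are zinc-finger proteins induced alongside FOS. Egr1 had 549, 1211 and 12.7 CPM in WT and 4.82, 5.56 and 4.12 CPM in IRF8KO. WT replicate 3 was 43.3-fold and 95.5-fold below WT replicates 1 and 2 and still above all IRF8KO libraries. The log2 fold change was −6.93 (SE 1.18, edgeR adjusted p = 0.00195), the largest decrease among the tested members, and its call held in all 6 fits that left out 1 library. With WT replicate 3 as the lone WT library it was −1.37 (edgeR adjusted p = 0.181). Egr2 had 160, 1193 and 0 counts in WT and 0, 16 and 17 in IRF8KO, so WT replicate 3 and IRF8KO replicate 1 were both at 0. It was called lower at −5.04 (SE 1.39, edgeR adjusted p = 0.0256), a call kept in 2 of the 6 fits that left out 1 library and lost with the DESeq2 Wald test (DESeq2 adjusted p = 0.151) and with scaling by library size alone (edgeR adjusted p = 0.0521). Egr3 had at most 6 counts in any library. NR4A proteins are orphan nuclear receptors with the same kind of induction. Nr4a1 had 12.6, 25.7 and 6.34 CPM in WT and 30.0, 8.70 and 7.92 CPM in IRF8KO, with groups that overlapped and a log2 fold change of 0.04 (SE 0.60, edgeR adjusted p = 0.972) whose sign changed with scaling by library size alone (−0.66). Nr4a2 reached at most 12 counts and Nr4a3 at most 1, so NR4A expression was near the detection limit apart from Nr4a1.

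KLF factors are zinc-finger proteins that restrain or shape the response of myeloid cells. Klf2, which dampens NF-kB targets in macrophages, had 118, 139 and 21.6 CPM in WT and 15.2, 16.2 and 6.72 CPM in IRF8KO, with no overlap. It fell by 2.87 on the log2 scale (SE 0.59, edgeR adjusted p = 0.00584). Klf6 had 134, 199 and 26.2 CPM in WT and 8.19, 39.8 and 12.6 CPM in IRF8KO. WT replicate 3 sat within the IRF8KO range, and the log2 fold change was −2.56 (SE 0.69, edgeR adjusted p = 0.023). Klf4 had at most 7.36 CPM and a log2 fold change of −2.21 that was not called (SE 0.82, edgeR adjusted p = 0.0779). Klf10, a TGF-beta inducible factor, was not called either, at 15.4, 18.6 and 6.34 CPM in WT and 12.8, 34.7 and 26.2 CPM in IRF8KO (log2 fold change 0.87, SE 0.47, edgeR adjusted p = 0.220).

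The IER genes are short immediate early genes with 1 or 2 exons. Ier2 had 613, 1217 and 92.5 CPM in WT and 229, 117 and 180 CPM in IRF8KO. WT replicate 3 was the lowest of all libraries, and the log2 fold change of −1.87 was not called (SE 0.66, edgeR adjusted p = 0.0669). Ier5 had 232, 331 and 91.4 CPM in WT against 77.7, 76.7 and 79.3 CPM in IRF8KO, where the highest IRF8KO level was 1.03 times the lowest, the smallest such ratio among the tested members. It fell by 1.49 on the log2 scale (SE 0.40, edgeR adjusted p = 0.0228), with no overlap. Ier3, which promotes survival of stimulated cells, had 31.1, 91.2 and 9.79 CPM in WT and 46.2, 23.96 and 44.2 CPM in IRF8KO. WT replicate 2 was the highest library and WT replicate 3 the lowest, with WT replicate 1 inside the IRF8KO range, and the log2 fold change was −0.22 (SE 0.59, edgeR adjusted p = 0.829).

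MAP kinase phosphatases remove the phosphates that activate ERK, JNK and p38, and their members did not move as a group. Dusp1 (chromosome 17, 26505590 to 26562128), the nuclear phosphatase for p38 and JNK, had 833, 1441 and 18.9 CPM in WT and 105, 78.8 and 81.6 CPM in IRF8KO. WT replicate 3 was the lowest library and WT replicates 1 and 2 the highest. The log2 fold change was −3.11 (SE 0.95, edgeR adjusted p = 0.0392), and 2.23 (edgeR adjusted p = 0.00315) with WT replicate 3 as the lone WT library, so the sign depends on which WT libraries are used. The call was also lost with the DESeq2 Wald test (DESeq2 adjusted p = 0.0636). Dusp5 (chromosome 19, 53529109 to 53542431), a nuclear phosphatase for ERK, had 0.195, 1.49 and 0.551 CPM in WT and 33.7, 27.4 and 15.2 CPM in IRF8KO. All IRF8KO libraries were above all WT libraries, and Dusp5 rose by a log2 fold change of 4.89 (SE 0.63, edgeR adjusted p = 3.29e-04). With 1, 21 and 4 counts in WT it was tested only because it is high in IRF8KO, so the call adds little to the counts themselves, and another gene overlaps 22.1% of its exonic length. Dusp6, the cytoplasmic ERK phosphatase, was well counted in every library, with 817, 680 and 338 CPM in WT and 354, 413 and 508 CPM in IRF8KO. WT replicate 3 was again the lowest, and Dusp6 was not called (log2 fold change −0.53, SE 0.36, edgeR adjusted p = 0.326). Dusp2 lay between 1.95 and 8.53 CPM in all libraries and was not called (edgeR adjusted p = 0.935).

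The promoters of Dusp1 and Dusp5 are shown because these phosphatases had opposite signs against all 3 WT libraries, though both were called higher against WT replicate 3 alone (2.23 and 5.50). Both are the 250 bases before the RefSeq start (GRCm38.p6): chr17:26508473-26508722 on the minus strand for Dusp1 and chr19:53528895-53529144 on the plus strand for Dusp5. Capitals mark CRE cores in Dusp1, and in Dusp5 a pair of adjoining serum response elements (CArG boxes) followed by a CRE core read on the other strand.
Dusp1: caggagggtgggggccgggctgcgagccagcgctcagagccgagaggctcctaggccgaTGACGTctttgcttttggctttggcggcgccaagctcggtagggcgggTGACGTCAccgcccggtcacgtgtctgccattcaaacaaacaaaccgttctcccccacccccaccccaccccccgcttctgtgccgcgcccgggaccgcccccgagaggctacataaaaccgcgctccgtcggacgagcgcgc
Dusp5: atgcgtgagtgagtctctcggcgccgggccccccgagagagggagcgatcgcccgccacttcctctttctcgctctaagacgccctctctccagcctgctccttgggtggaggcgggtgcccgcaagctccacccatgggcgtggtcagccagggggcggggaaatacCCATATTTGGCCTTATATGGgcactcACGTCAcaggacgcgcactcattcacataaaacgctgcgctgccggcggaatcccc
The CRE cores of Dusp1 began 191, 143 and 141 bases before the start, the last 2 being the overlapping strands of 1 palindrome. The serum response elements of Dusp5 began 82 and 72 bases before the start.

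BTG proteins slow proliferation and recruit mRNA deadenylases. Btg2 had 871, 1732 and 114 CPM in WT and 134, 149 and 99.3 CPM in IRF8KO, with WT replicate 3 inside the IRF8KO range. Its log2 fold change was −2.83 (SE 0.70, edgeR adjusted p = 0.0149), and 0.18 (edgeR adjusted p = 0.787) with WT replicate 3 as the lone WT library. Btg1 was flatter, at 142, 163 and 75.4 CPM in WT and 94.1, 81.8 and 72.6 CPM in IRF8KO, and was not called (log2 fold change −0.62, SE 0.32, edgeR adjusted p = 0.198).

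Among the feedback genes, Zfp36, which encodes the RNA-binding protein tristetraprolin, had 581, 1031 and 131 CPM in WT and 153, 119 and 130 CPM in IRF8KO. WT replicate 3 lay within the IRF8KO range. The log2 fold change was −2.11 (SE 0.56, edgeR adjusted p = 0.0206) against all WT libraries and 0.04 (edgeR adjusted p = 0.951) against WT replicate 3. Nfkbia, the inhibitor IkB-alpha, had 134, 152 and 51.1 CPM in WT and 154, 181 and 248 CPM in IRF8KO. The groups did not overlap, but the gap between WT replicate 2 and IRF8KO replicate 1 was small and Nfkbia was not called (log2 fold change 0.79, SE 0.39, edgeR adjusted p = 0.173). Nfkbiz, a nuclear IkB protein, had 21.2, 36.9 and 2.89 CPM in WT and 10.8, 13.6 and 18.1 CPM in IRF8KO (log2 fold change −0.53, SE 0.65, edgeR adjusted p = 0.608). Socs3, the inhibitor of cytokine receptor signalling, had 75.7, 129 and 40.3 CPM in WT and 46.9, 36.7 and 55.2 CPM in IRF8KO (log2 fold change −0.82, SE 0.39, edgeR adjusted p = 0.158). Neither was called, and WT replicate 3 was below WT replicates 1 and 2 for both.

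Of the stress and GTPase regulators, Gadd45g (chromosome 13, 51846678 to 51848468, plus strand) was the lower member whose call held in every alternative that was run. It encodes a small stress sensor that activates p38 and JNK kinases, and had 60.3, 80.4 and 46.7 CPM in WT and 12.5, 9.69 and 9.87 CPM in IRF8KO. All WT libraries, replicate 3 included, were well above all IRF8KO libraries. The log2 fold change was −2.55 (SE 0.32, edgeR adjusted p = 2.7e-04), and −2.12 (edgeR adjusted p = 0.00661) with WT replicate 3 as the lone WT library. Ppp1r15a (GADD34), which restores translation after stress, had 136, 299 and 40.3 CPM in WT and 27.3, 8.62 and 13.9 CPM in IRF8KO, with no overlap. It fell by 3.27 on the log2 scale (SE 0.64, edgeR adjusted p = 0.00443). Rhob, a short-lived small GTPase, had 286, 253 and 151 CPM in WT and 97.3, 107 and 95.3 CPM in IRF8KO, and fell by 1.20 (SE 0.30, edgeR adjusted p = 0.0167). Gadd45b stayed between 0.584 and 2.89 CPM with no call (edgeR adjusted p = 0.724). Rgs1, which quenches chemokine receptor signalling, had 19.7, 35.2 and 1.93 CPM in WT and 5.30, 17.2 and 5.97 CPM in IRF8KO, and was not called (log2 fold change −0.99, SE 0.77, edgeR adjusted p = 0.398).

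The promoter of Gadd45g is shown because its decrease was called with or without WT replicate 3 (GRCm38.p6, chr13:51846425-51846674, plus strand), with its TATA box in capitals.
Gadd45g: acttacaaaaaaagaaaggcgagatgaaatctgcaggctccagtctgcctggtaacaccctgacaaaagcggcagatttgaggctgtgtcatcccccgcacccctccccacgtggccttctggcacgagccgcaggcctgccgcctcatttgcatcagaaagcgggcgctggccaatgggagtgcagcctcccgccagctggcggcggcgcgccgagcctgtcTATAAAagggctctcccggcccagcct
No other searched motif matched this window.

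Heat-shock chaperones split into inducible and constitutive members. Hspa1a and Hspa1b (chromosome 17, 34969190 to 34972156 and 34956436 to 34959238, minus strand) are neighbouring, near-identical genes for inducible HSP70, so uniquely placed reads undercount both and each value is uncertain. Hspa1a had 109, 273 and 0.414 CPM in WT and 11.7, 2.87 and 1.52 CPM in IRF8KO. Hspa1b had 153, 456 and 0.414 CPM in WT and 7.54, 3.95 and 1.52 CPM in IRF8KO. WT replicate 3 held 3 reads of each, the lowest of all libraries, and the scaled ratio of WT replicate 2 to it was 659 for Hspa1a (exact 95% counting interval 225 to 3199) and 1103 for Hspa1b (377 to 5348). Both were called lower, with log2 fold changes of −4.63 (SE 1.33) and −5.59 (SE 1.40) and edgeR adjusted p of 0.0301 and 0.0162. With WT replicate 3 as the lone WT library they were 3.63 and 3.34 and were not called (edgeR adjusted p of 0.138 and 0.136). A further gene shares 19.0% of the exonic length of Hspa1a. In the by-strand columns Hspa1a summed to 968, 6535 and 4 counts in WT and 114, 58 and 29 in IRF8KO, the same order of libraries.
Dnajb1, the HSP40 that hands clients to HSP70, had 185, 307 and 70.6 CPM in WT and 164, 86.9 and 87.2 CPM in IRF8KO, and was not called (log2 fold change −0.74, SE 0.46, edgeR adjusted p = 0.286). Hspa8, the constitutive HSC70, had 727, 801 and 247 CPM in WT and 744, 497 and 765 CPM in IRF8KO. WT replicate 3 was the lowest library, and the log2 fold change was 0.18 (SE 0.41, edgeR adjusted p = 0.802), with a change of sign when scaled by library size alone (−0.47).

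The promoter of Hspa1a is shown for its heat-shock element (GRCm38.p6, chr17:34972157-34972406, minus strand). Capitals mark an NF-kB motif and then the heat-shock element GAANNTTC.
Hspa1a: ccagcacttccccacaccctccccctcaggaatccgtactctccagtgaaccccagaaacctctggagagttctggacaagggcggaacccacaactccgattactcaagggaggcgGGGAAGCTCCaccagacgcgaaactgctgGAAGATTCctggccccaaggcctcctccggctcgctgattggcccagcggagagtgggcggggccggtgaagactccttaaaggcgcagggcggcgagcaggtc
The heat-shock element began 104 bases before the start. The window of Hspa1b differed from this one at 3 of 250 bases and held the same motifs.

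**Figure D2:**
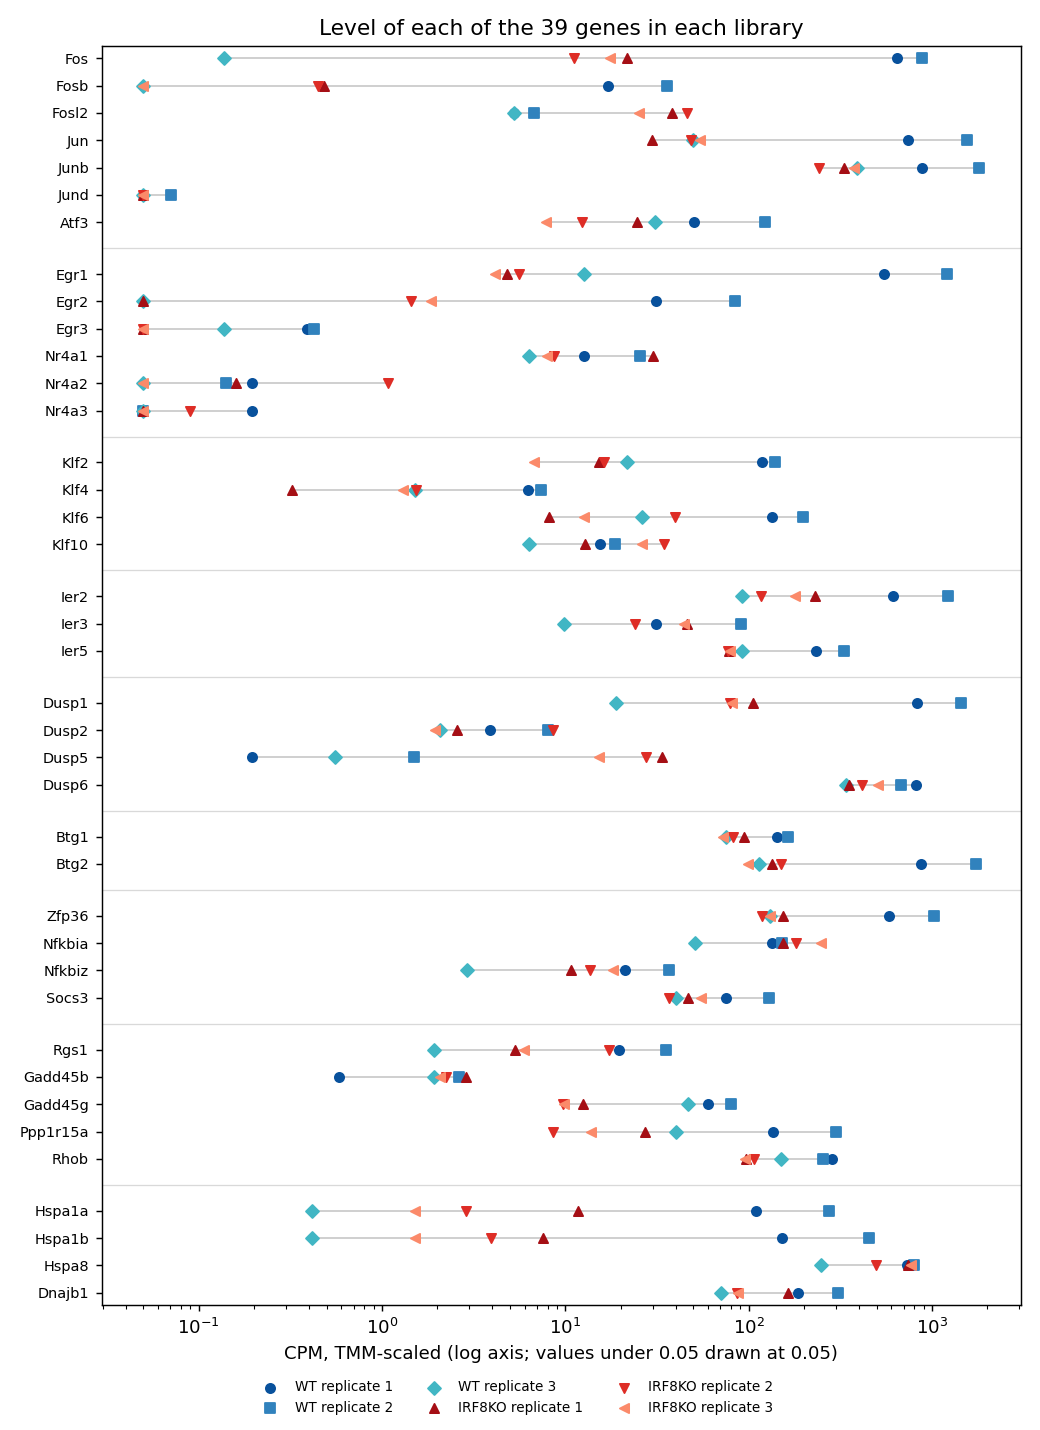
Level of each of the 39 genes in each library, in TMM-scaled CPM on a log axis, grouped by role, with values under 0.05 drawn at 0.05; blue symbols are WT and red symbols IRF8KO. WT replicates 1 and 2 lie at the right for most genes, WT replicate 3 lies among or left of the IRF8KO libraries for Fos, Jun, Dusp1 and Hspa1a, and Fosl2 and Dusp5 have all IRF8KO libraries to the right.

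The order of the libraries was shared across roles. WT replicates 1 and 2 were both above the other 4 libraries for 25 of the 34 tested members, against 26.1% of all tested genes. WT replicate 2 exceeded WT replicate 1 for 32 of 34, the exceptions being Dusp6 and Rhob, against 56.1% of all tested genes. The full order WT replicate 2, WT replicate 1, then the rest held for 23 of 34, against 13.3%. WT replicates 1 and 2 were both over 10 times WT replicate 3 for 8 of 34, namely Fos, Jun, Egr1, Egr2, Dusp1, Hspa1a, Hspa1b and Rgs1, against 3.81% of all tested genes. Within WT the highest library exceeded the lowest by a median of 4.86-fold over the tested members counted in all 3, and by 1.99-fold over all such genes. Within IRF8KO the same medians were 1.84 and 1.69, so the members varied little more than other genes there.

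Relative to the IRF8KO libraries, WT replicate 3 took no single place. It was below all of them for 17 of 34 members, where 35.7% of all tested genes were, within their range for 9, where 32.4% were, and above all of them for 8, where 31.9% were. The 8 above were Junb, Egr1, Ier5, Atf3, Klf2, Gadd45g, Ppp1r15a and Rhob, and these are also the 8 tested members whose groups did not overlap with IRF8KO lower, against 17.9% of all tested genes. Groups without overlap and IRF8KO higher were found for Fosl2, Dusp5 and Nfkbia, 3 of 34, against 20.0%. The sequence of WT replicates 1 and 2 highest and WT replicate 3 below every IRF8KO library held for 9 of 34 members, against 4.99% of all tested genes. It included Fos, Dusp1, Ier2, Hspa1a and Hspa1b.

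The calls depended on which libraries entered. Without WT replicate 3, 24 of 35 tested members were lower, the 17 among them, against 15.4% of all genes tested in that fit, and 2 were higher, against 18.1%. The 24 include Fosb, which met the filter there only through WT replicates 1 and 2 and so had to differ. With WT replicate 3 as the lone WT library, assumed to vary like the IRF8KO libraries, 1 of 34 was lower (Gadd45g), against 4.95%, and 8 were higher (Fos, Fosl2, Dusp1, Dusp5, Ier3, Nfkbia, Nfkbiz and Hspa8), against 5.32%. Of these 8, Fos and Dusp5, with 1 and 4 reads in WT replicate 3, met the filter only through the IRF8KO libraries and had to be higher. The median log2 fold change of the members was −2.06 in the first of these fits and 0.50 in the second, beside −0.07 and 0.20 over all genes tested there. In the second fit 16 members had the opposite sign to the fit on all 6 libraries. Without WT replicate 1, 16 members were lower, against 5.59% of all genes tested in that fit, and without WT replicate 2, 6 were, against 4.91%. Without IRF8KO replicates 1, 2 and 3 in turn, 6, 10 and 2 members were lower, against 4.37%, 9.14% and 3.37%; the last 2 were Egr1 and Gadd45g. Calls over all genes fell in these fits too, while the members' median log2 fold change was −1.63 and −1.04 without WT replicates 1 and 2 and −1.71, −1.64 and −1.83 without each IRF8KO library. Egr1, Gadd45g, Fosl2 and Dusp5 kept their calls in all 6 fits that left out 1 library, and the last 3 also in every other alternative in which they were tested. For Dusp5 this is no separate evidence, since it entered these fits through the IRF8KO libraries and was not tested under the strict filter. Jun, Klf2 and Ppp1r15a kept theirs in 5 of the 6, Atf3 in 4, Btg2, Klf6 and Hspa1b in 3, and the other 8 (Fos, Junb, Egr2, Ier5, Dusp1, Zfp36, Hspa1a and Rhob) in 2. With limma-voom 9 members were lower, against 9.83% of all tested genes, and 8 calls were lost: Fos, Egr1, Egr2, Dusp1, Btg2, Zfp36, Hspa1a and Hspa1b.

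**Figure D3:**
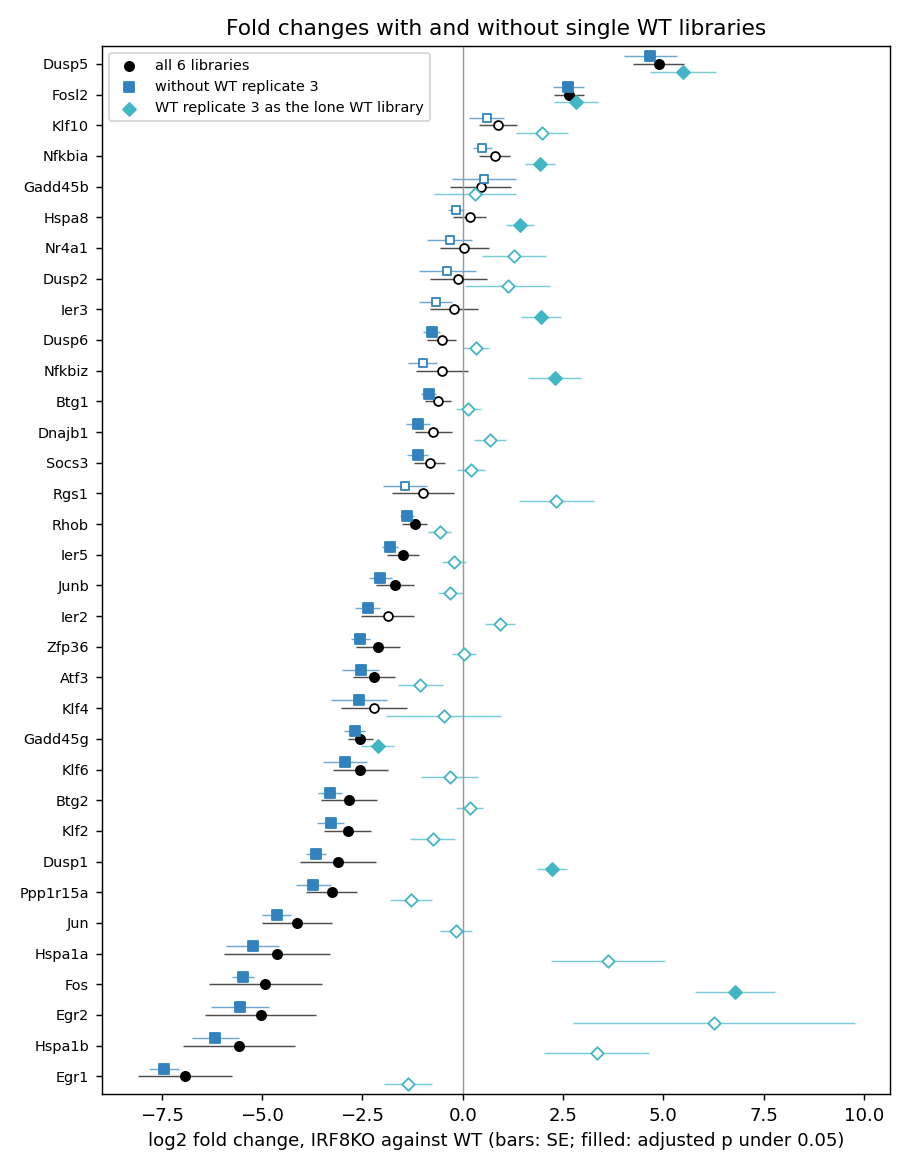
Log2 fold change of IRF8KO against WT for the 34 tested members, with SE as bars and filled symbols for an edgeR adjusted p under 0.05, from all 6 libraries (black circles), without WT replicate 3 (blue squares) and with WT replicate 3 as the lone WT library (turquoise diamonds). Fosl2 (2.63 to 2.82), Dusp5 (4.67 to 5.50) and Gadd45g (−2.69 to −2.12) keep their sign and call in the 3 fits, whereas Fos moves from −4.92 to 6.78 and Dusp1 from −3.11 to 2.23.

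Several measures differed along with the members, and their part in the result was not tested. The log2 difference between WT replicate 3 and a WT library rose with gene GC content (Spearman correlation 0.62 with WT replicate 1 and 0.62 with WT replicate 2, across 11034 genes of the same libraries). The tested members had a median GC content of 54.5%, above 50.5% for all tested genes. With a GC offset in the fit, 19 members were called lower, against 15.4% of all tested genes, a share also above the 9.46% without it. Of 39 tested markers of 9 kinds of other cells, none had WT replicates 1 and 2 above the other 4 libraries. The summed level of red blood cell markers was 0 CPM in WT replicates 1 and 2, 57.5 CPM in WT replicate 3 and 53.8 to 439 CPM in IRF8KO. Astrocyte markers summed to 31.3, 11.4 and 108 CPM in WT and 149 to 253 CPM in IRF8KO. Neuron markers summed to 3.11, 0.779 and 13.1 CPM in WT and 31.9 to 54.1 CPM in IRF8KO, and oligodendrocyte markers to 345, 285 and 700.3 CPM in WT and 484 to 692 CPM in IRF8KO. For these 4 lists WT replicates 1 and 2 were the lowest libraries. Monocyte markers, with F10 at 0, summed to 0.584, 1.49 and 0.414 CPM in WT and 4.33, 46.1 and 1.95 CPM in IRF8KO, where IRF8KO replicate 2 stood apart. Neutrophil markers, with Mmp8 at 0, summed to 651 to 999.6 CPM in WT and 871 to 1318 CPM in IRF8KO, and endothelial markers to 25.5 to 36.8 CPM in WT and 46.1 to 60.1 CPM in IRF8KO. Lymphocyte markers summed to 519 to 859 CPM in WT and 32.9 to 45.1 CPM in IRF8KO. Cd3e, Cd3g, Ms4a1, Gzma and Cd8a had 0 counts in all libraries. Only 2 of the 9 neutrophil markers and 3 of the 12 lymphocyte markers passed the filter. Among the latter, 2 were called lower and 1 higher, where 9.46% and 9.64% of all tested genes were. The sums of both lists thus rest on few genes and do not show that such cells were present or lost.

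Compact gene structure was common to the members. The longest coding transcript had a median of 3 exons against 9 over all tested genes, and 15 of 34 had at most 2 exons, against 10.5% of all tested genes. The median gene span was 4102 bases, against 21783. RefSeq promoter windows of 250 bases were found for 32 of the 39 genes, 37 windows in all, and the same motifs were sought in 32851 windows of the same length, on both strands except for the TATA box. The CRE core TGACGT was in 11 of the 37 windows, in 9 genes (Atf3, Btg1, Btg2, Dusp1, Dusp5, Egr2, Fos, Nr4a3 and Ppp1r15a), against 6.47% of all windows. Serum response elements (CArG boxes) were in 6 windows, of Dusp5, Egr2 and Zfp36, against 1.47%. Alternative starts of Egr2 gave 4 of those windows, of which 3 overlap and share 1 element. The heat-shock element GAANNTTC was in 4 windows (Fosl2, Hspa1a, Hspa1b and Jun), against 6.69%, and the NF-kB motif in 8, against 7.25%. TATAAA on the gene's strand was in 4, against 7.59%, and neither TGACTCA, the AP-1 site, nor GCGTGGGCG, the EGR site, was in any, against 4.46% and 0.536%. These are matches of letters, not shown to be bound here.

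Genes around the response were read from 6 further lists, whose calls stand beside 9.46% lower and 9.64% higher over all tested genes. With lists this short, a few calls change the share of a list by much, and no list was tested as a set. Of the upstream kinases and the factors they act on, 4 of 23 tested genes fell, 1 rose, and the median log2 fold change was −0.07. Map2k1, a kinase that activates ERK, had 129, 124 and 98.2 CPM in WT and 49.9, 47.4 and 42.1 CPM in IRF8KO (log2 fold change −1.33, edgeR adjusted p = 0.00482), with WT replicate 3 close to the other WT libraries. Crem, whose products include an inducible repressor at CRE sites, rose (log2 fold change 2.64, edgeR adjusted p = 0.0213). Among 9 tested AP-1 and small MAF subunits outside the set, 2 fell and 1 rose, again beside 9.46% and 9.64%. Jdp2, a JUN partner that represses AP-1 targets, rose from 28.1 to 36.6 CPM in WT to 114 to 172 CPM in IRF8KO (edgeR adjusted p = 7.33e-04). Batf3, a JUN partner in myeloid cells, fell from 21.01 to 24.7 CPM to at most 2.39 CPM (log2 fold change −4.44, edgeR adjusted p = 0.00246). Crem passed the filter in all libraries of IRF8KO alone, and Batf3, like Il1a below, in all libraries of WT alone, each the group where it is high.

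Of the further immediate early genes, 5 of 22 tested were lower, beside 9.46% of all genes, and 2 higher, near the 9.64% of all genes, with a median of 0.26. Ccn1, a matricellular protein gene, had 3 counts over the WT libraries and 12.8, 17.7 and 16.4 CPM in IRF8KO. It was called higher (edgeR adjusted p = 1.23e-04), but passed the filter only through the IRF8KO libraries and so had to differ. Myc, the growth-promoting transcription factor, had 46.3, 60.6 and 27.6 CPM in WT and 5.14, 7.45 and 9.44 CPM in IRF8KO (log2 fold change −2.60, edgeR adjusted p = 9.15e-04). Csrnp1 had 30.7, 52.0 and 46.3 CPM in WT and 11.4, 5.65 and 9.76 CPM in IRF8KO (log2 fold change −2.28, edgeR adjusted p = 0.00153), without the gap between WT libraries that marks Fos. Of 20 tested feedback genes outside the set, 1 fell and 2 rose, close to the shares over all genes. Bcl3, a nuclear IkB protein, rose from 2.14 to 6.89 CPM in WT to 33.4 to 55.1 CPM in IRF8KO (log2 fold change 3.37, edgeR adjusted p = 4.27e-04). The gene that fell was Dusp7, a cytoplasmic ERK phosphatase, from 107 to 148 CPM in WT to 34.8 to 54.3 CPM in IRF8KO (log2 fold change −1.56, edgeR adjusted p = 0.0036), with WT replicate 3 the highest library.

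Of the early cytokines and chemokines, 4 of 12 tested were lower and 3 higher, beside 9.46% and 9.64% of all genes, with a median of −0.20. Il1a had 33.5, 49.6 and 8.68 CPM in WT and 1.44, 4.49 and 2.169 CPM in IRF8KO (log2 fold change −3.47, edgeR adjusted p = 0.00332), whereas Il1b had 1.95, 3.68 and 1.10 CPM in WT and 44.8, 26.8 and 15.6 CPM in IRF8KO (log2 fold change 3.63, edgeR adjusted p = 9.88e-04). Csf1, the growth factor that microglia depend on, rose from 12.2 to 24.7 CPM to 54.4 to 68.5 CPM (log2 fold change 1.83, edgeR adjusted p = 0.00263). The other 3 lower genes, Ccl2, Ccl3 and Ccl4, were named after their values were seen, since they had WT replicates 1 and 2 above the rest and WT replicate 3 within the IRF8KO range, as Jun and Zfp36 did. Ccl3 had 134, 267 and 21.6 CPM in WT and 25.8, 7.45 and 12.4 CPM in IRF8KO (log2 fold change −3.23, edgeR adjusted p = 0.00973). Of 29 tested heat-shock and co-chaperone genes outside the set, 2 fell, 1 rose and 26 were not called, with a median of −0.46; both counts of calls lie below the shares over all genes. WT replicates 1 and 2 were above the other libraries for 16 of the 29, beside the 26.1% of all tested genes. Dnaja2, a constitutive HSP40, fell from 26.8, 22.9 and 11.9 CPM to 5.78, 5.38 and 4.45 CPM (log2 fold change −1.98, edgeR adjusted p = 0.00888).

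**Figure D4:**
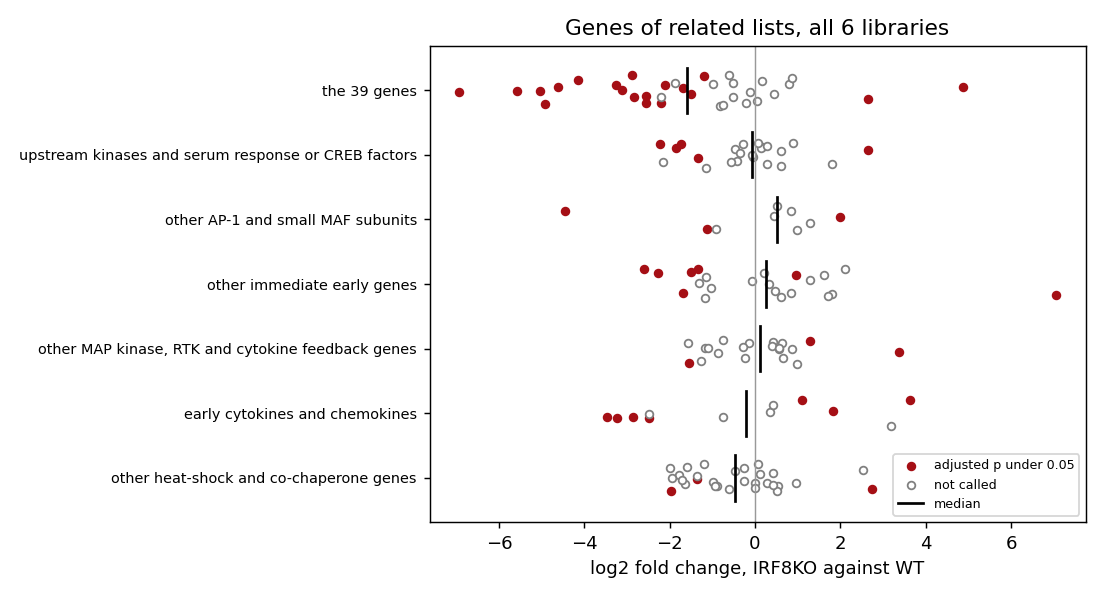
Log2 fold change of IRF8KO against WT from all 6 libraries for the tested genes of the set and of 6 related lists, with red points for an edgeR adjusted p under 0.05 and black bars for medians. The median of the set is −1.59, and those of the other lists lie between −0.46 and 0.51.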

How the data were processed

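Microglial RNA in 6 libraries was measured by SMART-Seq v4 cDNA and Nextera XT libraries, per the labels' protocols. The deposited counts are raw gene counts, made by the authors in the layout of STAR's gene counting; the submitters' processing notes name STAR 2.5.2b, Picard 2.17.11, featureCounts and the mm10 build, with no role for each, and the annotation release is not given in the sources used here. The strand-blind column was used. Of 49585 gene IDs, 49326 matched GENCODE M21 (GRCm38), which gave symbols and positions. Summary lines stayed out of library sizes.

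The test was that of edgeR 4.0.16 (R 4.3.3): default expression filter, TMM scaling, quasi-likelihood F test on genotype, Benjamini-Hochberg adjustment over all 11041 tested genes, called under 0.05. SEs were derived from the F statistic. Alternatives used library size alone, DESeq2 1.42.0, limma-voom (limma 3.58.1), other filters, a GC offset, a replicate block and left-out libraries. The main test and some of the alternatives were checked on simulated counts. That simulation held no library that stands apart, so it does not bear on the gap between the WT libraries here. The members and lists were chosen with earlier results of these data known. All 39 members could be named; of other lists, the 3 called genes with the smallest p, with Ccl2, Ccl3 and Ccl4 as exceptions named after their values were seen. Not every such gene is described. Labels do not say how separate the mice's preparations were, so p-values measure the spread between these libraries. Promoters are RefSeq sequences (GRCm38.p6).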

Additional observations from a re-analysis of the deposited data

How the results depend on the processing

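The 3 libraries a group limit precision, and leaving out 1 of them moved the count of lower members between 2 and 24, left that of higher members at 2, and moved that of all called genes (2109) between 910 and 4003. With limma-voom 9 members were lower, while the calls over all genes were 2291. With WT replicate 3 as the lone WT library the counts were 1 lower and 8 higher of the members, and 1245 of all genes. With at least 10 counts in every library 1 member was higher, since Dusp5 was not tested there. In every other alternative the 3 counts stayed within 1.5 times. The cause of these shifts was not tested.

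Replicate numbers did not pair the libraries: deviations of same-numbered libraries correlated at −0.26, 0.33 and 0.11, and not every library correlated best with its own number. With the replicate block, 15 members were lower, 2 higher and 2353 of all genes called. The calls lost were Fos (−3.88, edgeR adjusted p = 0.0651) and Dusp1 (−2.14, edgeR adjusted p = 0.0822).

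Signs turned for some members. With WT replicate 3 as the lone WT library the log2 fold changes that turned were 6.78 for Fos, 6.26 for Egr2 (a fitted value over 0 counts in WT replicate 3, and no bound; IRF8KO replicates 2 and 3 were at least 3.47-fold and 4.46-fold above a floor of 3 counts), 0.92 for Ier2, 1.95 for Ier3, 2.23 for Dusp1, 1.12 for Dusp2, 0.34 for Dusp6, 0.14 for Btg1, 0.18 for Btg2, 0.043 for Zfp36, 2.29 for Nfkbiz, 3.63 for Hspa1a, 3.34 for Hspa1b, 0.67 for Dnajb1, 2.33 for Rgs1 and 0.20 for Socs3. Scaling by library size alone, which moved the median of all genes to −0.61, gave −0.66 for Nr4a1, −0.47 for Hspa8 and −0.035 for Gadd45b. The GC offset gave 0.016 for Btg1, −0.54 for Nr4a1 and −0.046 for Hspa8. For Ier3, limma-voom gave 0.12 and the replicate block 0.28. For Nr4a1, limma-voom gave −0.29, no filter −0.025 and the strict filter −0.021. Leaving out 1 library gave log2 fold changes of −0.68 to 0.90 for Ier3, −1.06 to 0.56 for Dusp2, −0.83 to 0.70 for Nr4a1, −0.998 to 0.24 for Nfkbiz and −0.17 to 0.45 for Hspa8. None of these genes was called both ways except Fos and Dusp1.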
